A study of Mus musculus with 8 samples.

Results

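Expression of 10 genes that detect nucleic acids in the wrong compartment of the cell, or pass that signal on, was followed in mouse embryonic fibroblasts (MEFs) exposed to RHPS4, a ligand of G-quadruplexes (G4). The genes were given as a list by symbol, and all 10 were found among the 24460 genes counted and passed the filter on low counts, which left 14296 genes to test. They comprised 6 sensors (Mb21d1, Zbp1, Ddx58, Ifih1, Dhx58 and Tlr3) and 4 signalling genes (Tmem173, Mavs, Tbk1 and Irf3). Total RNA of wild type MEFs was sequenced after exposure to 0 µM RHPS4 (3 libraries), 2 µM (3 libraries) or 10 µM (2 libraries), in a strand-specific preparation depleted of nuclear ribosomal RNA. The libraries of all groups came from subconfluent cultures in the same high-glucose medium. The labels give a choice of exposure times without assigning these libraries to any, name no strain or passage of the MEFs and no interferon treatment, and do not say whether libraries of a group came from separate cultures, so that the p-values below measure only the spread between these libraries.

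Cells treat nucleic acid in the cytosol or in endosomes as a sign of infection or of damage to their own nuclei and mitochondria. cGAS (gene Mb21d1) binds DNA and makes a cyclic dinucleotide that activates the adaptor STING (Tmem173), whereas RIG-I (Ddx58) and MDA5 (Ifih1) bind RNA and act through MAVS, an adaptor on the mitochondrial outer membrane. Both branches activate the kinase TBK1 and the transcription factor IRF3, which switch on type I interferon. Interferon in turn raises many antiviral genes, several RNA sensors among them, and fibroblasts hold both branches.

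Libraries held between 10455965 and 26688121 counts, and 3 counts corresponded to 0.119 to 0.311 CPM (counts scaled to the library total, here with TMM factors). Such limits cover counting error only. The share of counts from mitochondrial DNA (mtDNA) moved with the dose, at 13.2% to 14.4% in the 0 µM libraries, 7.40% to 8.26% at 2 µM and 5.33% to 6.32% at 10 µM. All 8 fibroblast markers were detected in every library, at a summed level of 12597 to 13133 CPM at 0 µM, 11326 to 11681 CPM at 2 µM and 11013 to 11600 CPM at 10 µM. Between 0 µM and 10 µM all 8 had negative log2 fold changes (down to -0.60), and Pdgfrb was called lower. That call stood under 15 of the 16 alternatives of the analysis, all but scaling to total counts only. The 10 myeloid and lymphoid markers, none at 0 in any library, summed to 25.1 to 28.0 CPM, 20.8 to 22.9 CPM and 18.1 to 20.8 CPM at the 3 doses. Of these Cd14 was called lower between 0 µM and 10 µM, at a log2 fold change of -0.95 ± 0.130 SE (edgeR adjusted p = 0.000868, 0.0103 without the first 10 µM library). The other 9, a sum added after the data were seen, were at 8.30 to 13.9 CPM, 10.4 to 11.1 CPM and 10.1 to 13.1 CPM and overlapped between the doses. The 7 epithelial and endothelial markers, none at 0 in any library, summed to 5.30 to 6.12 CPM, 6.18 to 6.77 CPM and 7.51 to 7.55 CPM, and the part of either list in the results below was not tested. In bulk RNA, fewer cells of a type and less RNA per cell cannot be told apart.

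In the untreated MEFs the members differed widely in level. Per kilobase of exon, the DNA sensor Mb21d1 was at 14.8 ± 0.315 CPM per kb (SD, n = 3), the kinase Tbk1 at 12.9 ± 1.00 CPM per kb, the adaptor Mavs at 12.7 ± 0.428 CPM per kb and the RNA sensor Ddx58 at 12.5 ± 0.865 CPM per kb. The last 3 of these levels lay within each other's spread, and Irf3 followed at 5.89 ± 0.439 CPM per kb. Tmem173 was at 3.86 ± 0.359 CPM per kb, Dhx58 at 3.07 ± 0.138 CPM per kb and Tlr3 at 2.24 ± 0.235 CPM per kb. Zbp1, at 0.455 ± 0.105 CPM per kb, and Ifih1, at 0.356 ± 0.0508 CPM per kb, were lowest, and their levels overlapped within 1 SD. The RNA sensors of the same family thus stood far apart, with Ddx58 near the top of the order and Ifih1, beside Zbp1, at its end. The length was that of all annotated exons of a gene merged, and the order depends on it. In CPM not divided by length, Ddx58 was at 87.9, Ifih1 at 2.91 and Zbp1 at 1.61 at 0 µM. At 10 µM, Ddx58 was first of the 10 genes at 21.1 ± 0.347 CPM per kb (SD, n = 2) and Dhx58 at 5.98 ± 0.464 CPM per kb overlapped Irf3, at 5.43 ± 0.254 CPM per kb, within 1 SD of each.

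Genes were compared between doses with edgeR's quasi-likelihood test, with all 8 libraries in 1 model, and a gene was called when its adjusted p was below 0.01 and its levels differed more than 1.5-fold. The members and the lists below were chosen with earlier results of these data known. The shares of all genes set beside their calls are therefore a description and not a test of enrichment. The comparison of 10 µM with 0 µM called 2 of the 10 members, Ddx58 and Dhx58, both higher, beside 1.95% of all tested genes called higher and 1.14% called lower. That of 10 µM with 2 µM called 5 members, all higher (Ddx58, Dhx58, Ifih1, Zbp1 and Tlr3), beside 3.92% of all genes higher and 1.59% lower. At 2 µM against 0 µM no member was called by edgeR or by DESeq2, where 0.119% of all genes were called higher and 0.378% lower. At that dose 6 members had an unadjusted p under 0.05 in edgeR, beside 3046 of the 14296 tested genes. Over all tested genes 4205 had such a p at 10 µM against 0 µM and 5223 at 10 µM against 2 µM. With an adjusted p under 0.05 and no minimum fold, 3 members passed at 2 µM, Mb21d1 higher (1.51% of all genes) and Ddx58 and Dhx58 lower (2.65% of all genes). The same looser rule gave 5 higher members at 10 µM against 0 µM (6.81% of all genes). The median log2 fold change of the 10 members was -0.34 at 2 µM and 0.28 at 10 µM, each against 0 µM, beside -0.01 and 0.02 over all tested genes. The comparisons share libraries, those at 2 µM and at 10 µM the untreated ones, and their values are therefore given side by side without a test between them.

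Counts of members whose libraries did not overlap between doses need the same background. At 2 µM, 1 member had all its libraries above those at 0 µM (12.7% of all tested genes) and 5 had all below (12.9%). Between 10 µM and 0 µM the numbers were 5 above (22.9%) and 2 below (20.0%), and between 10 µM and 2 µM they were 5 above (27.0%) and 3 below (24.9%).

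Ddx58 encodes RIG-I, a helicase that binds the triphosphate end of short RNA, and lies on the minus strand at chr4:40203773-40239828 (GRCm38, the assembly named mm10). Its level was 94.5, 82.4 and 86.8 CPM in the 0 µM libraries, 73.8, 69.5 and 66.9 CPM at 2 µM, and 150.5 and 147 CPM at 10 µM. The 3 groups did not overlap, with the 2 µM libraries lowest and the 10 µM libraries highest. Ddx58 rose 1.70-fold at 10 µM against 0 µM (log2 fold change 0.76 ± 0.0804 SE, edgeR adjusted p = 0.000145) and 2.13-fold against 2 µM (log2 fold change 1.09 ± 0.0809 SE, adjusted p = 8.13e-06). At 2 µM the log2 fold change was -0.33 ± 0.0743 SE, with an edgeR adjusted p of 0.0373, which did not pass. Both calls stood under all 16 alternatives of the analysis, leaving out any library included.

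Dhx58 encodes LGP2, a relative of RIG-I without the domains that signal, which tunes RIG-I and MDA5. It lies on the minus strand at chr11:100694884-100704271 and shares 141 exon bases with the antisense gene Dhx58os. Its level was 9.86, 9.71 and 10.6 CPM at 0 µM, 5.29, 6.28 and 8.14 CPM at 2 µM, and 18.5 and 20.6 CPM at 10 µM. The 10 µM libraries were highest and the 2 µM libraries lowest, without overlap. Dhx58 rose 1.94-fold at 10 µM against 0 µM (log2 fold change 0.96 ± 0.142 SE, edgeR adjusted p = 0.00153) and 2.92-fold against 2 µM (log2 fold change 1.55 ± 0.151 SE, adjusted p = 6.45e-05). The first of these calls was lost without the second 0 µM library (edgeR adjusted p = 0.0134) and without the second 10 µM library (adjusted p = 0.0246). The log2 fold change at 2 µM was -0.59 ± 0.146 SE (edgeR adjusted p = 0.0474).

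Ifih1 encodes MDA5, which binds long duplex RNA, and lies on the minus strand at chr2:62595798-62646255. It was counted 14 to 80 times per library, at 3.11, 2.43 and 3.18 CPM at 0 µM, 1.23, 2.20 and 1.78 CPM at 2 µM, and 4.64 and 5.04 CPM at 10 µM. As for Ddx58 and Dhx58, the groups did not overlap. Ifih1 rose 2.75-fold at 10 µM against 2 µM (log2 fold change 1.46 ± 0.226 SE, edgeR adjusted p = 0.00122), a call that was lost without the second 10 µM library (adjusted p = 0.0127). Against 0 µM the log2 fold changes were 0.74 ± 0.200 SE at 10 µM (edgeR adjusted p = 0.0316) and -0.72 ± 0.220 SE at 2 µM (adjusted p = 0.0925). Neither passed.

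Interferon acts through sites built of 2 GAAA blocks separated by 2 bases, and these letters were searched on both strands of the RefSeq promoter windows (GRCm38.p6, 250 bases before the start to 50 after it). A window was at hand for 7 of the 10 members, Mb21d1 under its symbol Cgas. Zbp1, Dhx58 and Tmem173 had none and were not searched. The motif was in the windows of 2 of the 7, Ddx58 and Ifih1, both times after the start, at positions +3 to +12 in Ddx58 and +33 to +42 in Ifih1. Of all 27025 genes with a window, 1079 (3.99%) held it in at least 1 window. The same pattern was present in 13 of 53 other genes of the sensing pathway (24.5%), 10 of 23 interferon-stimulated genes (43.5%) and 0 of 15 genes that contain mitochondrial nucleic acids. A second search, added after the data were seen, looked for 4 runs of 3 or more G with 1 to 7 bases between them on either strand, a common pattern for a possible G4. It was in 2 of the 7 windows and in 20.4% of all genes, and its matches are not shown. The GAAA matches are shown because they are sequence features that the list of members did not use. In 4 windows neither pattern was found, which says only that these letters are not in them. Each line gives 30 bases of the gene's own strand, 5′ to 3′, with the match in capitals. In Ddx58 the named letters lie on the opposite strand, so that the capitals show TTTC blocks.
Ddx58 GAAA blocks, chr4:40239804-40239833, minus strand: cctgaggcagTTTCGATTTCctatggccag
Ifih1 GAAA blocks, chr2:62646206-62646235, minus strand: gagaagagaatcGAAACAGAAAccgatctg

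A match in a window is a description of sequence and not of binding.

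Zbp1 encodes a sensor of left-handed (Z-form) nucleic acid that can trigger cell death through RIPK3, and lies on the minus strand at chr2:173206612-173218923. With 10 to 69 counts per library it was the least counted member. Its level was 1.25, 1.59 and 1.98 CPM at 0 µM, 0.881, 0.897 and 1.90 CPM at 2 µM, and 3.60 and 4.96 CPM at 10 µM. The 0 and 2 µM libraries overlapped, whereas both 10 µM libraries were above all others. Zbp1 rose 3.27-fold at 10 µM against 2 µM (log2 fold change 1.71 ± 0.311 SE, edgeR adjusted p = 0.00303), the largest fold change of a member in any comparison. The call was lost without the first 2 µM library (adjusted p = 0.0112 in edgeR), the second 2 µM library (0.0161) or the second 10 µM library (0.0340). Against 0 µM the log2 fold change at 10 µM was 1.33 ± 0.282 SE, and its edgeR adjusted p of 0.0108 missed the threshold, which it passed in DESeq2 (adjusted p = 0.00517) and without the filter on low counts (edgeR adjusted p = 0.00402). It passed as well without the third 2 µM library (edgeR adjusted p = 0.00611).

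Tlr3 encodes a receptor of endosomes that binds duplex RNA and signals through TRIF (Ticam1) rather than MAVS, so that it is not a cytosolic sensor in the strict sense. It lies on the minus strand at chr8:45395665-45411080 and shares 381 exon bases with the antisense gene Gm45542. Its level was 10.3, 12.4 and 12.3 CPM at 0 µM, 8.90, 9.62 and 9.33 CPM at 2 µM, and 17.6 and 15.9 CPM at 10 µM. The order of the groups was that of Ddx58, without overlap. Tlr3 rose 1.80-fold at 10 µM against 2 µM (log2 fold change 0.85 ± 0.118 SE, edgeR adjusted p = 0.000658), and this call was lost without the first 10 µM library (adjusted p = 0.0101). The log2 fold changes against 0 µM were 0.50 ± 0.113 SE at 10 µM (edgeR adjusted p = 0.0146) and -0.35 ± 0.110 SE at 2 µM (adjusted p = 0.0985). For Tlr3 and Dhx58 it is not given in the sources used here whether the counting used strand, and reads of an antisense gene cannot then be told apart.

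Mb21d1, the sensor of DNA, did not follow the RNA sensors. The gene lies on the minus strand at chr9:78430526-78443237, where 201 exon bases are shared with the antisense gene Gm8093. Its level was 59.6, 61.9 and 61.7 CPM at 0 µM, 74.0, 72.6 and 76.9 CPM at 2 µM, and 57.9 CPM in each of the 10 µM libraries. The 2 µM libraries were above all others and the 10 µM libraries below them all. At 2 µM the log2 fold change was 0.29 ± 0.0641 SE (1.22-fold, edgeR adjusted p = 0.0357), which passed neither limit. From 2 µM to 10 µM it was -0.36 ± 0.0725 SE with an edgeR adjusted p of 0.00495, past the limit on p but not that on the fold. From 0 µM to 10 µM it was -0.08 (edgeR adjusted p = 0.507, interval of 2 SE from -0.22 to 0.07). Its sign turned with scaling to total counts only (0.14), which moved the median log2 fold change of all genes by 0.21.

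**Figure D1:**
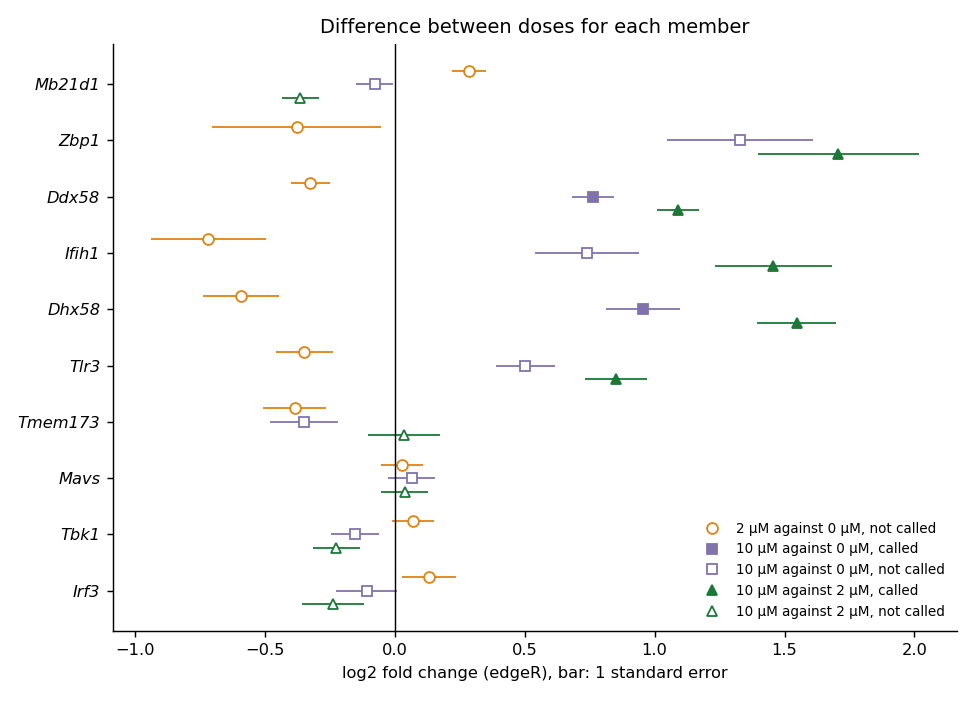
The x axis is the log2 fold change from edgeR with bars of 1 SE, the rows are the 10 members, and filled symbols mark calls. Calls are found among 5 sensors at 10 µM, between 0.76 and 1.71, while Mavs stays between 0.03 and 0.06 in all 3 comparisons.

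None of the 4 signalling genes was called in any comparison by edgeR or DESeq2. In each comparison 1 of the 4 had an unadjusted p under 0.05 in edgeR, Tmem173 against 0 µM and Tbk1 between the doses. Of all 14296 tested genes, 3046 had such a p at 2 µM against 0 µM, 4205 at 10 µM against 0 µM and 5223 between the doses. Tmem173 encodes STING, the adaptor of the cGAS branch in the endoplasmic reticulum. Its level was 11.6, 9.66 and 10.5 CPM at 0 µM, 8.02, 8.56 and 7.55 CPM at 2 µM, and 7.57 and 8.92 CPM at 10 µM. All treated libraries were below all untreated ones, and those at the 2 doses overlapped. The log2 fold changes against 0 µM were -0.39 ± 0.120 SE at 2 µM (edgeR adjusted p = 0.0945) and -0.35 ± 0.132 SE at 10 µM (adjusted p = 0.103). Between the doses it was 0.04 (interval of 2 SE from -0.24 to 0.31). The intervals of 2 SE against 0 µM, which take no account of the number of genes tested, ran from -0.63 to -0.15 and from -0.62 to -0.09.

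Mavs, on the plus strand at chr2:131234063-131248025, encodes the adaptor of RIG-I and MDA5. It was at 44.0, 41.6 and 41.5 CPM at 0 µM, 46.1, 40.9 and 42.3 CPM at 2 µM, and 41.4 and 47.1 CPM at 10 µM. The groups overlapped at every dose. The log2 fold change was 0.03 at 2 µM (interval of 2 SE from -0.14 to 0.19, edgeR adjusted p = 0.885) and 0.06 at 10 µM (from -0.12 to 0.25, adjusted p = 0.677). Tbk1, at chr10:121546455-121586787 on the minus strand, encodes the kinase that activates IRF3. It was at 45.9, 51.7 and 53.3 CPM at 0 µM, 54.1, 51.0 and 53.9 CPM at 2 µM, and 47.9 and 42.7 CPM at 10 µM. Both treated groups overlapped the untreated one, and the 10 µM libraries were below those at 2 µM. The log2 fold change was 0.07 at 2 µM (edgeR adjusted p = 0.659, interval from -0.09 to 0.23) and -0.15 at 10 µM (adjusted p = 0.289, from -0.34 to 0.03), with a turn of the latter to 0.06 under total counts only.

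Irf3 encodes the transcription factor at the end of both branches. It lies on the plus strand at chr7:44997648-45002848, where 88 exon bases are shared with the antisense gene Bcl2l12. Its level was 21.7, 18.7 and 20.4 CPM at 0 µM, 24.2, 23.0 and 19.3 CPM at 2 µM, and 19.3 and 18.1 CPM at 10 µM. Each treated group overlapped the untreated libraries. The log2 fold change was 0.13 at 2 µM (edgeR adjusted p = 0.507, interval from -0.08 to 0.34) and -0.11 at 10 µM (adjusted p = 0.576, from -0.34 to 0.12), the latter 0.11 under total counts only. For Mavs, Tbk1 and Irf3 the intervals against 0 µM reached no lower than -0.34 and no higher than 0.34 on the log2 scale. An adjusted p over the threshold does not show that the doses acted alike on them.

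Ratios of counts within a library need no scaling between libraries. The log2 ratio of Ddx58 to Mb21d1, a ratio chosen after the data were seen, was 0.52 ± 0.129 (SD, n = 3) at 0 µM, -0.09 ± 0.101 (n = 3) at 2 µM and 1.36 ± 0.0242 (n = 2) at 10 µM. The ranges were 0.41 to 0.66, -0.20 to -0.01 and 1.34 to 1.38, without overlap, so that the RNA sensor had the more counts of the pair at 0 and 10 µM and fewer at 2 µM. The log2 ratio of the summed counts of the 6 sensors to those of the 4 signalling genes was 0.50 ± 0.0267 at 0 µM, 0.37 ± 0.0570 at 2 µM and 1.11 ± 0.0105 at 10 µM. These sums are dominated by Ddx58 and Mb21d1, the most counted sensors. Ratios of counts of different genes depend on gene length, and only their differences between doses compare like with like.

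The members were set against 65 other genes of nucleic acid sensing and interferon signalling, of which 57 were tested. This list too was chosen with earlier results known, so that its calls are no independent sign of enrichment. Of the 57, 12 were called higher and 1 lower at 10 µM against 0 µM, beside 1.95% and 1.14% of all tested genes. At 10 µM against 2 µM 20 were called higher and none lower, beside 3.92% and 1.59%. None was called at 2 µM against 0 µM by edgeR or DESeq2. In that comparison 21 had an unadjusted p under 0.05 and 6 an adjusted p under 0.05 in edgeR. Those limits were passed by 3046 and 595 of all 14296 tested genes. The median log2 fold changes against 0 µM were -0.15 at 2 µM and 0.20 at 10 µM. By role, other sensors held most of the calls at 10 µM, with 7 of 14 tested called higher and a median log2 fold change of 0.69. Ddx60, a helicase that aids RIG-I, rose from 12.0 ± 1.44 CPM (SD, n = 3) to 38.3 ± 3.09 CPM (n = 2; log2 fold change 1.66 ± 0.134 SE, edgeR adjusted p = 2.07e-05). The 5 genes of the oligoadenylate synthetase family listed here as sensors all rose. Their log2 fold changes ran from 0.79 for Oas1a to 1.21 for Oas2 (edgeR adjusted p from 0.00084 to 0.00875). Oas1a, Oas1b and Oas1g are close copies, and the split of reads between them is uncertain. Each of these 5 calls was lost without at least 1 of the 10 µM libraries, those of Oas1b, Oas1g and Oas2 also without the second 0 µM library, and that of Oas1g stood under 7 of the 16 alternatives. Ifi203, of the family of AIM2-like DNA sensors, rose by 0.59 (edgeR adjusted p = 0.00119), a call that stood under 7 of the 16 alternatives and was lost in DESeq2 and on leaving out any 2 µM library, the first 0 µM library or the second 10 µM library. In this comparison the DNA repair kinase Prkdc at 0.46 and the RNA-activated kinase Eif2ak2 (PKR) at 0.45 passed the limit on p but not that on the fold. Eif2ak2 was at 81.8, 77.5 and 79.7 CPM at 0 µM, 70.9, 67.3 and 76.4 CPM at 2 µM, and 105 and 113 CPM at 10 µM. Only its comparison of 10 µM with 2 µM was called (0.60 ± 0.0797 SE, edgeR adjusted p = 0.000486), which stood under 10 of the 16 alternatives and was lost in DESeq2 and without the first or second 0 µM, the second 2 µM or the second 10 µM library. Ddx41, a proposed sensor of DNA, was at 0.08 (edgeR adjusted p = 0.626). Aim2, Tlr7, Tlr8 and Tlr9, which immune cells use, had at most 13 counts in any library and were not tested.

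**Figure D2:**
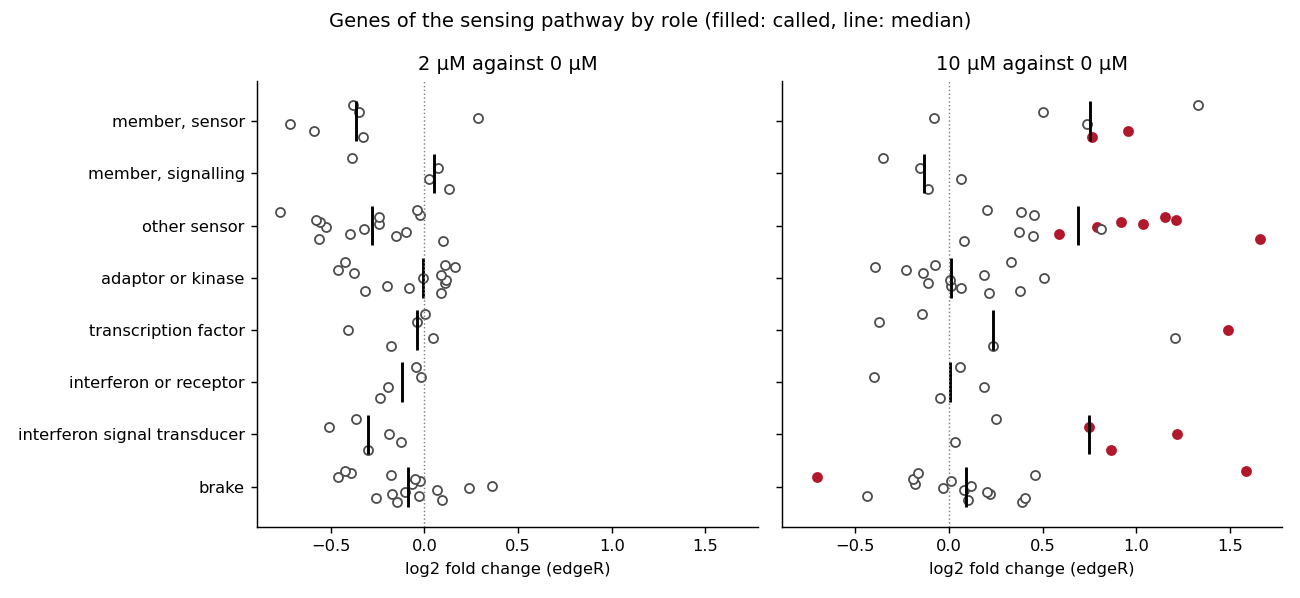
The x axis is the log2 fold change from edgeR against 0 µM at 2 µM (left) and 10 µM (right), points are tested genes grouped by role, filled points are calls and lines are medians. At 10 µM the medians of the other sensors (0.69) and of the interferon signal transducers (0.75) lie above that of the adaptors and kinases (0.01).

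Of 13 other adaptors and kinases none was called against 0 µM at either dose by edgeR or DESeq2. An unadjusted p under 0.05 in edgeR was found for 3 of them at 2 µM and 5 at 10 µM, beside 3046 and 4205 of all 14296 tested genes. The median log2 fold change of the 13 at 10 µM was 0.01. Ikbke, the kinase IKK-epsilon next to TBK1, was at 6.95, 8.03 and 7.90 CPM at 0 µM, 5.55, 5.54 and 7.25 CPM at 2 µM, and 9.52 and 10.6 CPM at 10 µM. It rose at 10 µM against 2 µM (log2 fold change 0.69 ± 0.150 SE, edgeR adjusted p = 0.00733), as did Trim25, the ubiquitin ligase that activates RIG-I (0.76 ± 0.153 SE, adjusted p = 0.00528). Both calls were lost without either 10 µM library, the first or second 2 µM library or the second 0 µM library, and that of Ikbke also without the third 0 µM library and in DESeq2. Ticam1, the adaptor of TLR3, had log2 fold changes of -0.46 at 2 µM (edgeR adjusted p = 0.0297) and -0.23 at 10 µM (adjusted p = 0.184). Among 5 transcription factors Irf7, the interferon-inducible relative of IRF3, was called. It was at 8.20, 7.63 and 7.34 CPM at 0 µM, 5.82, 4.65 and 6.66 CPM at 2 µM, and 22.3 and 20.8 CPM at 10 µM. The 10 µM libraries were above all others and those at 2 µM below, and Irf7 rose by 1.49 ± 0.129 SE on the log2 scale against 0 µM (edgeR adjusted p = 3.37e-05), where Irf3 did not.

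Transcripts of interferon itself were hardly found. Ifnb1, which encodes interferon beta, had 0 or 1 count in every library, which is under the limit of 3 counts, so that no difference was detectable at this depth. Ifna2 and Ifna4 were not tested either, and the interferon receptors Ifnar1, Ifnar2, Ifngr1 and Ifngr2 gave no call in edgeR or DESeq2. An unadjusted p under 0.05 in edgeR was found for 1, 1 and 3 of these receptors in the 3 comparisons. Over all 14296 tested genes it was found for 3046, 4205 and 5223. Among the genes that carry the signal from the receptor, Irf9 rose at 10 µM by 0.87 ± 0.0975 SE on the log2 scale (edgeR adjusted p = 0.000234) and Stat2 by 0.75 ± 0.106 SE (adjusted p = 0.0011, lost without the second 0 µM or the second 10 µM library), while the kinase Jak1 was at 0.03 (adjusted p = 0.851). Among 16 tested genes that restrain sensing, Usp18, which shuts the interferon receptor, rose by 1.59 ± 0.152 SE (edgeR adjusted p = 6.85e-05). Tnfaip3, the brake on NF-κB known as A20, was called lower at -0.70 ± 0.138 SE (edgeR adjusted p = 0.00719). This call was lost under 9 of the 16 alternatives, among them total counts only, the replicate block and leaving out either 10 µM library, the second or the third 0 µM library or the second or the third 2 µM library (highest adjusted p = 0.0661). Trex1, the nuclease of cytosolic DNA, and Dnase2a, that of lysosomal DNA, were called at 10 µM against 2 µM, at log2 fold changes of 0.64 and 0.67 (edgeR adjusted p = 0.00439 and 0.00177). The call of Dnase2a was lost without the second 2 µM or the second 10 µM library, and that of Trex1 in DESeq2 and without either of the 10 µM libraries, the second or the third 2 µM library or the second 0 µM library. Samhd1 (-0.18) and the RNase H2 subunits Rnaseh2a (0.08), Rnaseh2b (-0.03) and Rnaseh2c (0.12) were not called at 10 µM.

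A further 30 interferon-stimulated genes outside the members were read beside them, all tested between doses. They were also chosen with earlier results of these data known, and the shares of all genes given here do not test for enrichment. What raised or lowered these genes was not tested. Of the 30 genes, 21 were called higher at 10 µM against 0 µM (1.95% of all tested genes), with a median log2 fold change of 1.18. At 10 µM against 2 µM 27 were called higher (3.92% of all tested genes). At 2 µM 4 were called lower (Ifit1, Rsad2, Ifi44 and Cxcl10), beside 0.378% of all tested genes, with a median of -0.46 over the 30 genes. No call at 2 µM was left without the second 0 µM library or when any 2 µM library was left out, and 1 was left without the third 0 µM library, whereas DESeq2 gave 7. The medians of the 6 sensors among the members were -0.36 at 2 µM and 0.75 at 10 µM, and those of the 4 signalling genes 0.05 and -0.13. Among the genes called at 10 µM, the GTPase Mx1 stood at 1.92, the GTPase Iigp1 at 1.78, Ifi44 at 1.66 and the antiviral RNA-binding protein gene Ifit3 at 1.63 (edgeR adjusted p from 7.09e-07 to 2.13e-05). No interferon treatment is named for these cells, so that the values of these genes describe differences between doses and not a measured response to interferon.

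Over the 8 libraries the 5 sensors Ddx58, Dhx58, Ifih1, Zbp1 and Tlr3 had Pearson correlations of log2 CPM with each other from 0.82 (Zbp1 and Ifih1) to 0.95 (Zbp1 and Dhx58), and Mb21d1 from -0.89 to -0.64 with them. The points are the same libraries at 3 doses, so that these values describe the differences between doses above. Of all tested genes outside the members, the 5 most like Ddx58 over the 8 libraries were Rtp4 (r = 0.997), Usp11 (0.997), Lrrc17 (0.995), Irf9 (0.994) and Gbp7 (0.994). Those most like Tmem173 were Sesn1 (r = 0.987), Plat (0.981), Car12 (0.979), Ndrg2 (0.957) and Selk (0.955). Their log2 fold changes at 2 and 10 µM were -0.23 and -0.22 for Sesn1, a stress-responsive brake on mTORC1, and -0.42 and -0.38 for Plat, which encodes tissue plasminogen activator.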

How the data were processed

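RNA-Seq was performed on 8 MEF libraries (TruSeq Stranded Total RNA). The authors trimmed reads (Trim Galore, cutadapt, FastQC), aligned them to mm10 with STAR 2.5.2a and deposited featureCounts counts of unique fragments per gene, as whole numbers without normalization. The annotation and strand setting of that counting are not given in the sources used here.

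The deposited counts were tested with edgeR 4.0.16 in R 4.3.3 (filterByExpr, TMM, glmQLFit, glmQLFTest, Benjamini-Hochberg over 14296 genes). The dose was the only factor. The SE is the size of the log2 fold change divided by the root of the F statistic. CPM carries TMM factors, and log2 CPM for correlations had a prior count of 2. Exon lengths and positions came from GENCODE M21 (GRCm38), where Mb21d1 is named Cgas, and promoter windows from RefSeq. An exon length is the union of the exons of all transcripts of the gene. The same counts were tested with DESeq2 1.42.0 as an alternative. Python 3.11.15 with pandas 2.3.3 made the summaries. The fit was also run on simulated counts with known changes, drawn independently for each library. Its outcome is not given here, and it does not bear on how firm the calls are.

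Replicates of a group differed by a chi-square per degree of freedom of 3.23 to 20.2, more than sampling noise, and each library was used. Groups and replicate numbers came from the labels. Named were every member, Ifnb1, Irf7, Eif2ak2 and Ikbke, of each other list at most 6 called genes per comparison, and the 5 genes most like Ddx58 and Tmem173; other genes of the lists were chosen after their values were seen. The members and lists were chosen with earlier results of these data known. A protein comparison of the RNA sensors was not run, and single values of a few genes and the G-run matches are not reported here.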

Additional observations from a re-analysis of the deposited data

How the results depend on the processing

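The count of called members was 0 at 2 µM in every setting that kept the thresholds, and 3 with an adjusted p under 0.05 and no minimum fold. Between 10 µM and 0 µM the count of 2 became 5 under total counts only, 5 under the looser threshold, and 3 with DESeq2, with the replicate block or without the filter, and it ran from 1 to 3 as libraries were left out. Between 10 µM and 2 µM the count of 5 ran from 3 to 5. Leaving out a 10 µM library leaves 1, which is then assumed to vary like the other groups. For the 65 pathway genes the looser threshold gave 6 at 2 µM, 24 at 10 µM and 32 for 10 µM against 2 µM, total counts only gave 21 at 10 µM, and the counts ran from 7 to 12 at 10 µM and from 12 to 20 between the doses as libraries were left out. The lowest counts at 10 µM were 7 without the second 10 µM library, 8 without the first and 8 without the second 0 µM library. For the interferon-stimulated genes at 2 µM, DESeq2 gave 7 calls, the test without the filter 6 and the looser threshold 15, and the count of 4 ran from 0 to 5, with 0 without the second 0 µM library or any 2 µM library and 1 without the third 0 µM library. At 10 µM it ran from 18 to 22 and between the doses from 22 to 27. For the genes that contain mitochondrial nucleic acids the looser threshold gave 1 at 2 µM, 5 at 10 µM and 4 for 10 µM against 2 µM. Their count of 1 at 10 µM became 2 with RLE factors, without the filter or in DESeq2, and 0 under total counts only, and ran from 0 to 2. Between the doses total counts only gave 1, and the count stayed at 2 to 2 as libraries were left out. The cause of these moves was not tested.

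Under total counts only the median log2 fold change of all genes moved by 0.21 at 10 µM against 0 µM and by 0.14 between the doses, and 846 genes were called higher and 68 lower at 10 µM, beside 279 and 163 with TMM. DESeq2 gave 233 and 269, and edgeR without the filter 275 and 285. Signs turned at 10 µM against 0 µM for Mb21d1 (0.14), Tbk1 (0.060) and Irf3 (0.11) under total counts only, and between the doses for Tmem173 (-0.0076 without the filter, -0.0040 in DESeq2) and Mavs (-0.0055 and -0.0026). As libraries were left out, Tmem173 between the doses ran from -0.12 to 0.11, and Mavs from -0.022 to 0.062 at 2 µM, -0.058 to 0.13 at 10 µM and -0.096 to 0.090 from 2 to 10 µM. The difference in the log2 ratio of sensors to signalling genes from 0 µM was -0.13 at 2 µM and 0.61 at 10 µM, and -0.56 and 0.80 as a median over genes. Without Zbp1 and Dhx58 it was 0.57 at 10 µM. In all, 446 of the 480 values of single members kept their direction and side of the threshold.

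Replicate numbers are shared by the groups. Pairs of the same number at 0 and 2 µM correlated at 0.0845 to 0.20 in their deviations from the group means, and pairs with 10 µM at -0.15 to -0.02. The 2 libraries at 10 µM deviate from their mean as mirror images, so that the values with 10 µM cannot decide on pairing. The numbers were not taken as pairs in the main model, and whether they mark a shared batch was not tested. Every 0 and 2 µM library correlated best with its own number in the other of these groups. With the replicate block 0, 3 and 5 members and 0, 11 and 18 pathway genes were called in the 3 comparisons, and Zbp1 at 10 µM against 0 µM passed (1.71, edgeR adjusted p = 0.00342).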

Other observations

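Mitochondrial nucleic acid is a source of ligands for cGAS and MDA5 in other settings, and 18 genes that hold it back or let it out were read beside the members. None was called at 2 µM by edgeR or DESeq2, and 5 had an unadjusted p under 0.05 in edgeR, beside 3046 of all 14296 tested genes. From 0 µM to 10 µM the initiator caspase gene Casp9 (-0.13) and Apaf1 (0.04), whose product activates it, were not called. Dna2, a nuclease and helicase of mtDNA and nuclear DNA, fell by 0.74 at 10 µM against 2 µM (SE 0.101, edgeR adjusted p = 0.000592). Against 0 µM it stood at -0.58 (adjusted p = 0.0036), at the edge of the limit on the fold.

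Of 5 genes of mitochondrial RNA decay or stability (Pnpt1, Supv3l1, Tbrg4, Lrpprc and Slirp), none was called in any comparison by edgeR or DESeq2. An unadjusted p under 0.05 in edgeR was found for 3, 4 and 2 of them in the 3 comparisons. Over all 14296 tested genes it was found for 3046, 4205 and 5223. Pnpt1, whose loss lets mitochondrial duplex RNA reach MDA5, stood at 0.34 (edgeR adjusted p = 0.027) and Supv3l1 at 0.26 (adjusted p = 0.0724) at 10 µM against 0 µM. Of the genes of the outer membrane, Bak1 stood at -0.38 (edgeR adjusted p = 0.0468), Bax at -0.14 and Vdac1 at -0.25, and Tfam, which packages mtDNA, at 0.06 (edgeR adjusted p = 0.747). The median over the 18 genes was -0.07, beside 0.02 over all tested genes.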
